A study of Homo sapiens with 6 samples.

Results

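The subunits of the condensin complexes and the topoisomerase II enzymes were followed in FUJIOKA, a cell line from human acute myeloid leukaemia, with and without silencing of SPINK2. All 10 genes of this family were found by symbol among the 63236 genes listed, namely SMC2, SMC4, NCAPD2, NCAPG, NCAPH, NCAPD3, NCAPG2, NCAPH2, TOP2A and TOP2B. The series holds 3 libraries of cells with a scrambled control shRNA (shNEG) and 3 of cells with a SPINK2 shRNA (shSPINK2), both in the Tet-pLKO-puro vector, in which doxycycline switches the hairpin on. Cells of both groups were transduced with lentivirus and selected with puromycin. The labels name 2 SPINK2 hairpins and the methods 1, the labels do not tie a hairpin to a library, and how long the cells had received doxycycline before RNA extraction is not given in the sources used here. Nothing in the labels says whether the 3 libraries of a group came from separate cultures, so that the p-values below measure only the spread between these libraries.

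Condensins are ring-shaped motor complexes that extrude loops of DNA and shape mitotic chromosomes. SMC2 and SMC4 form the ATPase core of both complexes, and each complex adds its own kleisin (NCAPH or NCAPH2) and its own pair of HEAT-repeat subunits (NCAPD2 and NCAPG in condensin I, NCAPD3 and NCAPG2 in condensin II). Condensin II is nuclear through interphase and begins compaction in prophase, whereas condensin I reaches the chromosomes after the nuclear envelope breaks down. Topoisomerase II passes a DNA duplex through a break in another and removes the tangles between sister chromatids. Its alpha form, TOP2A, accumulates in dividing cells, and its beta form, TOP2B, is also made in cells that do not divide. Both forms are trapped on DNA by etoposide and the anthracyclines, drugs used against acute myeloid leukaemia.

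Whole reads per library were recovered from the deposited mean of each gene, and the recovery gave a single solution for all 10 genes. Recovered reads came to 33365480 to 34053297 per library, and the size factors of the libraries, which put them on a common depth, lay between 0.985419 and 1.033179. Libraries are called a, b and c within a group in order of size factor, since the recovered values carry no replicate number. The targeted gene, SPINK2, had 53, 63 and 56 reads in shNEG and 6, 9 and 7 in shSPINK2, a log2 ratio of -2.91 ± 0.27 (SE). Of the markers of the line, CD33, PTPRC, SPI1, CEBPA and LYZ had means of 7777 to 44097 reads and MPO of 1844, whereas KIT had a mean of 0.666 and CD34 of 19.6. Of the 7 tested, 3 were called higher in shSPINK2 by limma (LYZ at 0.49, CD33 at 0.36 and PTPRC at 0.32 on the log2 scale) and 2 lower (MPO at -0.40 and CD34 at -0.86). The shares over all genes tested were 28.8% higher and 29.8% lower. The summed reads of the 7 markers were 95323 to 99140 in shNEG and 116086 to 118112 in shSPINK2, of which LYZ alone held 36447 to 36863 and 49945 to 54466. Of 11 markers of other cell types, 8 had a mean under 1, and the highest was COL1A1, with 186, 172 and 182 reads in shNEG and 122, 114 and 122 in shSPINK2 (log2 ratio -0.60, limma adjusted p 1.2e-05). The part of these markers in the results was not tested. Pairs of libraries of the same group differed by more than counting noise, with a mean chi-square per gene of 2.17 to 3.23 within shNEG and 6.88 to 9.35 within shSPINK2. None was therefore counted as the same library sequenced again. These values cannot tell whether the libraries came from separate cultures. The reads carry no molecular identifiers, so that they are not independent molecules.

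Silencing of SPINK2 went with lower mRNA of both condensins and of TOP2A, while TOP2B was slightly higher. By limma on log2 normalized reads, with Benjamini-Hochberg adjustment over all 16074 genes tested, 9 of the 10 genes were lower in shSPINK2 and 1 was higher at an adjusted p under 0.05. Of all genes tested, 29.8% were called lower and 28.8% higher. Under upper quartile scaling the balance over all genes turned, to 4098 lower and 5496 higher, while the count of members stayed at 9 lower and 1 higher. All 9 lower genes had fewer reads in each shSPINK2 library than in any shNEG library, as did 31.7% of all genes, and TOP2B had more in each, as did 30.8%. The median log2 ratio of the 10 genes was -0.83, beside 0.00 over all genes tested. NCAPG, NCAPH and TOP2A also passed a log2 ratio of -1, the threshold of the study, which 2.96% of all genes passed in that direction. Without library c of shSPINK2, TOP2A came to -0.996 and 2 members were left past -1. In such bulk RNA, fewer dividing cells and less RNA per cell cannot be told apart.

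**Figure D1:**
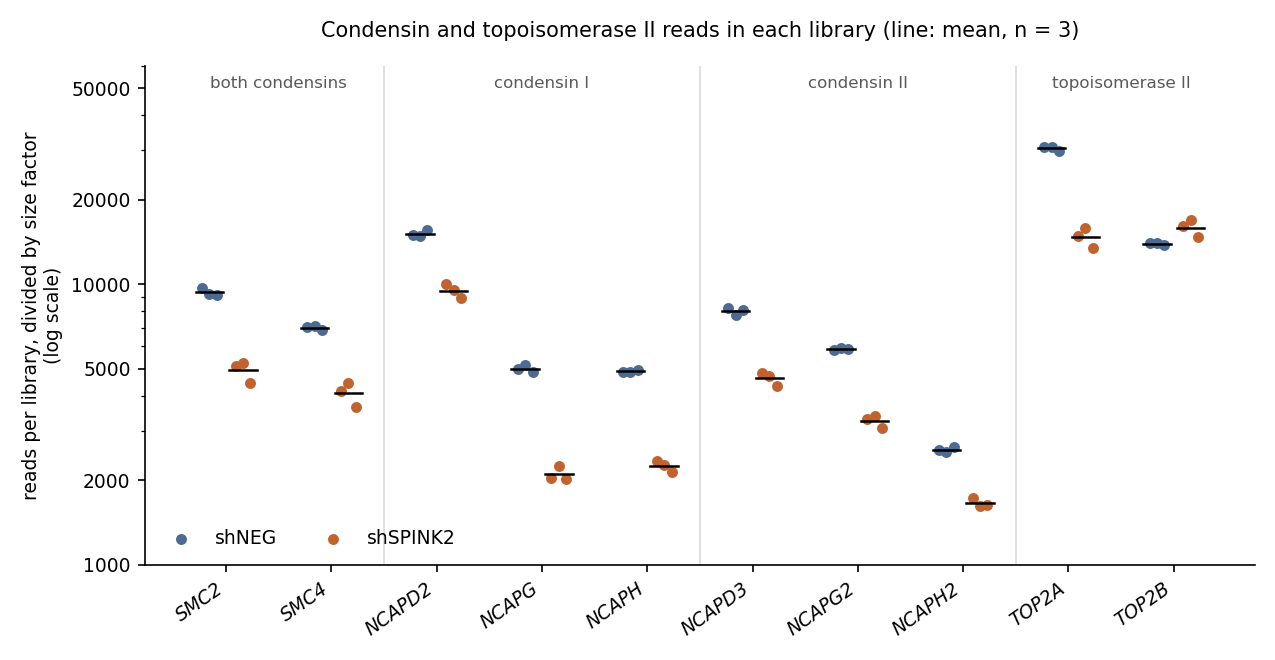
Reads of each gene divided by the library's size factor, on a log axis, with 1 point per library (blue, shNEG; orange, shSPINK2) and a line at the mean of 3. The 3 shSPINK2 points lie under the 3 shNEG points for 9 genes and above them for TOP2B.

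TOP2A was the most abundant of the family in control cells. Its reads were 30847, 30962 and 29970 in shNEG libraries a to c and 14627, 15977 and 13861 in shSPINK2 libraries a to c. Every silenced library was far under every control library, and library c was the lowest. Normalized to depth, the level was 30570 ± 594 in shNEG and 14696 ± 1213 in shSPINK2 (SD, n = 3), a ratio of 0.48 and a log2 ratio of -1.06 ± 0.05 (SE), with a limma adjusted p of 6.1e-19. Only 2.4% of the genes tested had a lower log2 ratio. TOP2A lies on chromosome 17 at 40388525 to 40417896 on the minus strand (GRCh38), and its canonical transcript has 35 exons.

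TOP2B moved the other way by a small amount. It had 13977, 13975 and 13818 reads in shNEG and 15860, 17031 and 15158 in shSPINK2. The control libraries lay close to each other, and the lowest silenced library was above all of them. Its log2 ratio of 0.19 ± 0.05 (SE) corresponds to 13.9% more reads, with a limma adjusted p of 0.000835, and 68.4% of the genes tested had a lower log2 ratio. TOP2B lies on chromosome 3 at 25597978 to 25664909, on the minus strand, with 36 exons in its canonical transcript. The call held in every alternative fit, with a log2 ratio between 0.14 and 0.25 and an adjusted p between 8.62e-06 and 0.00653.

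Of the subunits particular to condensin I, NCAPG and NCAPH had the lowest log2 ratios of the family and NCAPD2 a higher one. NCAPG, a HEAT-repeat subunit encoded on chromosome 4 (17810979 to 17844865, plus strand), had 4977, 5158 and 4885 reads in shNEG and 2002, 2265 and 2090 in shSPINK2. The groups were far apart, and the highest silenced library was well under the lowest control. The log2 ratio was -1.25 ± 0.05 (SE), a fall of 58.1%, with a limma adjusted p of 2.03e-21. NCAPH, the kleisin that closes the condensin I ring (chromosome 2, 96335766 to 96377091, plus strand), had 4860, 4868 and 4971 reads in shNEG and 2306, 2293 and 2219 in shSPINK2. Its libraries were tight in both groups, with a coefficient of variation of 1.08% and 4.33%, and it fell by 54% (log2 ratio -1.12 ± 0.04, SE, limma adjusted p 1.14e-20). NCAPD2, the other HEAT-repeat subunit (chromosome 12, 6493356 to 6531955, plus strand), had 14927, 14871 and 15655 reads in shNEG and 9861, 9609 and 9205 in shSPINK2. The gap was smaller than for its partners, and the log2 ratio was -0.68 ± 0.05 (SE), a fall of 37.4% (limma adjusted p 1e-14).

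The subunits of condensin II fell as well. NCAPG2, the counterpart of NCAPG (chromosome 7, 158631169 to 158704804, minus strand), had 5821, 5936 and 5908 reads in shNEG and 3248, 3409 and 3177 in shSPINK2. NCAPD3, the counterpart of NCAPD2 (chromosome 11, 134150113 to 134225504, minus strand), had 8193, 7762 and 8121 reads in shNEG and 4734, 4744 and 4486 in shSPINK2. NCAPH2, the kleisin (chromosome 22, 50508224 to 50524780, plus strand), had 2569, 2521 and 2638 reads in shNEG and 1710, 1640 and 1688 in shSPINK2. For none of the 3 genes did the groups overlap, and the gap was narrowest for NCAPH2. The log2 ratios were -0.86 ± 0.04 for NCAPG2, -0.80 ± 0.05 for NCAPD3 and -0.63 ± 0.05 for NCAPH2 (SE), with limma adjusted p-values of 9.76e-18, 9.6e-17 and 1.54e-13.

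The core subunits common to both condensins were lower too. SMC2 (chromosome 9, 104094260 to 104141419, plus strand) had 9680, 9253 and 9139 reads in shNEG and 5035, 5296 and 4590 in shSPINK2. SMC4 (chromosome 3, 160399274 to 160434954, plus strand) had 7036, 7115 and 6874 reads in shNEG and 4106, 4482 and 3780 in shSPINK2. In both genes library b of shSPINK2 was the highest of the silenced libraries and library c the lowest, and neither reached the controls. The log2 ratio was -0.93 ± 0.05 for SMC2 and -0.78 ± 0.05 for SMC4 (SE), with limma adjusted p-values of 2.49e-17 and 4.06e-15.

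The silenced libraries were less alike than the controls. The coefficient of variation was larger in shSPINK2 than in shNEG for all 10 genes, and for 65.3% of all genes tested. Library c of shSPINK2 was the lowest of the silenced libraries for 9 of the 10 genes, TOP2B among them, and for 42.3% of all genes tested. The part of this library in the results is shown by leaving it out, after which the log2 ratios lay between -1.23 for NCAPG and 0.24 for TOP2B and no call at an adjusted p under 0.05 was lost. Several of the loci overlap other genes, and whether the counting used strand is not given in the sources used here, so that reads shared with these neighbours cannot be told apart. NCAPD2 overlaps MRPL51 on the opposite strand (mean 4499 reads, log2 ratio 0.03), NCAPD3 overlaps VPS26B (mean 3436 reads, log2 ratio 0.06), NCAPG overlaps LCORL (mean 1004 reads, log2 ratio -0.31) and SMC4 overlaps IFT80 and TRIM59 (means of 401 and 365 reads, log2 ratios 0.33 and -0.21). NCAPD3 also overlaps JAM3 (mean 144 reads, log2 ratio -0.71). Neighbours on the same strand, which no strand setting would separate, include a noncoding gene at NCAPH2 (mean 86.7 reads, log2 ratio -0.51). Others are MIR4442 at TOP2B (mean 45.3, log2 ratio -0.16) and a Y RNA at TOP2A (mean 11.6, log2 ratio -0.69).

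Ratios between counterpart genes within a library need no scaling between libraries, and 5 of them were compared. TOP2A exceeded TOP2B by a ratio of reads of 2.21, 2.22 and 2.17 in the shNEG libraries and stood at 0.922, 0.938 and 0.914 in the shSPINK2 libraries. TOP2A thus had more reads than TOP2B in every control library and fewer in every silenced one. The log2 ratio of reads changed from 1.14 ± 0.02 to -0.11 ± 0.02 (SD, n = 3), a difference of -1.25 ± 0.01 (SE, exact permutation p = 0.1, two-sided). With 3 libraries against 3 this is the smallest p that the test can give, and it was also the adjusted p of each of the 5 ratios. The kleisin ratio NCAPH over NCAPH2 fell from 1.89, 1.93 and 1.88 to 1.35, 1.4 and 1.31, and NCAPG over NCAPG2 from 0.855, 0.869 and 0.827 to 0.616, 0.664 and 0.658, differences of -0.49 ± 0.03 and -0.40 ± 0.04 on the log2 scale (SE). SMC2 over SMC4 fell as well, from 1.38, 1.3 and 1.33 to 1.23, 1.18 and 1.21 (difference -0.15 ± 0.03, SE). NCAPD2 over NCAPD3 went the other way, from 1.82, 1.92 and 1.93 to 2.08, 2.03 and 2.05 (difference 0.12 ± 0.03, SE). For each of the 5 ratios the groups did not overlap.

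Condensin I as a whole was set against condensin II by the mean log2 value of its 3 particular subunits. The difference was 0.52, 0.56 and 0.53 in shNEG libraries a to c and 0.26, 0.30 and 0.28 in shSPINK2 libraries a to c, a shift of -0.26. NCAPD2 held most of the reads of condensin I. When the reads of the 3 subunits were summed in place of averaging their log2 values, the difference was 0.60 ± 0.02 in shNEG and 0.54 ± 0.01 in shSPINK2 (SD, n = 3), a shift of -0.07.

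Levels were also compared between the genes, as normalized reads per kb of the canonical transcript. In shNEG the order ran from TOP2A (5368 ± 104), NCAPD2 (3138 ± 85.1) and TOP2B (2393 ± 20.1) through SMC2, NCAPG2 and SMC4 (1577, 1453 and 1369) to NCAPG, NCAPD3, NCAPH and NCAPH2 (1091, 1088, 812 and 771; SD, n = 3). NCAPG and NCAPD3 overlapped between libraries, and all other neighbours in this order were apart. In shSPINK2 the level per kb was 2731 ± 192 for TOP2B and 2580 ± 213 for TOP2A. Their ranges overlapped, but within each of the 3 libraries TOP2B was above TOP2A, and they were followed by NCAPD2 at 1964 ± 114. SMC2, NCAPG2 and SMC4 came next at 832, 803 and 799 per kb with overlapping ranges. Within a library SMC2 was above SMC4 in 3 of 3, above NCAPG2 in 2 of 3, and NCAPG2 was above SMC4 in 1 of 3. At the foot of the order NCAPH2 (499 ± 18.4) stood beside NCAPG (458 ± 27.3), with which it overlapped, and above NCAPH (374 ± 16.2), whereas in shNEG it was the lowest of the family. The length decides part of this order. Per kb of all annotated exons, which for TOP2B are 18645 bases against 5814 in the canonical transcript, TOP2A remained first in both groups, with 2306 ± 190 in shSPINK2, and TOP2B stood at 852 ± 59.9. By that length NCAPD3 (429 ± 12.5), not NCAPH2 (577 ± 12.5), was the lowest in shNEG. In shSPINK2 NCAPG (433 ± 25.8) then stayed above NCAPH2 (373 ± 13.8) without overlap, while NCAPH (344 ± 14.9) was still under NCAPH2.

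Genes that act with condensin and topoisomerase II were lower too. Of 18 genes that load, phosphorylate or accompany the condensation machinery, 15 were called lower and 0 higher by limma, with a median log2 ratio of -0.98, and 3 of 18 did not pass (MCPH1, CSNK2A1 and PHF8, with -0.12, 0.07 and 0.03). Over all genes tested, 29.8% were called lower and 28.8% higher. At an unadjusted p under 0.05 limma gave 16 lower and 0 higher, and edgeR called 16 lower and 0 higher, MCPH1 being the gene added in both. PLK1, a kinase that phosphorylates condensin II, had the lowest log2 ratio (-1.31 ± 0.04, SE). MKI67, the Ki-67 protein that coats mitotic chromosomes, stood at -1.30, CDK1 and CCNB1, the kinase and cyclin that start mitosis, at -1.19 and -1.28, and KIF4A, the kinesin that brings condensin I to the chromosome axis, at -1.08. The chromosomal passenger genes AURKB, INCENP, BIRC5 and CDCA8 lay between -1.10 and -1.02. AKAP8, an anchoring protein reported to recruit condensin, was at -0.20 and was called lower.

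The members were set beside genes of the cell cycle. All 8 of 8 genes of G2 and M phase were called lower, from -1.27 for TPX2 to -1.07 for BUB1, with a median of -1.15, and all 8 passed -1. The 8 genes of S phase were called lower as well, from -1.04 to -0.53 (MCM5), with a median of -0.86. Over all genes tested, 29.8% were called lower and 2.96% were called lower past -1. NCAPG and NCAPH lay within the range of the G2 and M phase genes and TOP2A just above it, whereas the other 6 condensin subunits lay within the range of the S phase genes. These lists are a description of where the members fall, and their part in the result was not tested. Of 7 housekeeping genes, 4 had reads too high to be recovered uniquely. The 3 tested, TBP, HPRT1 and SDHA, were at -0.46, -0.33 and -0.15. All 3 were called lower by limma, as were 29.8% of all genes tested, so they are no unchanged reference.

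**Figure D2:**
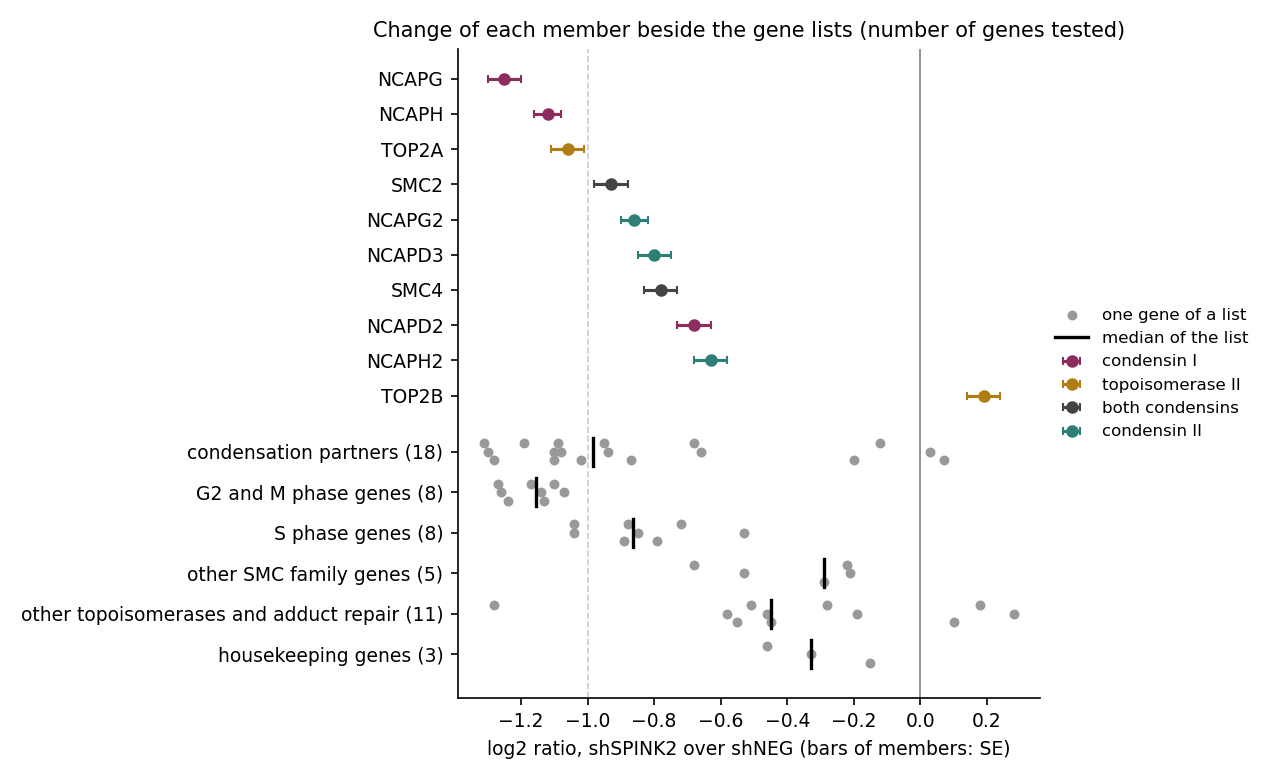
Log2 ratio of shSPINK2 over shNEG for each member with its SE (n = 3 libraries a group), coloured by complex, above the genes of 6 lists (grey points) with their medians (black bars). NCAPG and NCAPH lie among the G2 and M phase genes, the other condensin subunits among the S phase genes, and TOP2B right of 0.

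Relatives of the members had log2 ratios nearer to 0 in the median. Of 6 other SMC genes, 5 were tested and all 5 were called lower, from -0.68 for SMC1A, a cohesin subunit, to -0.21 for SMCHD1, a protein of the inactive X chromosome, with a median of -0.29. SMC3, the cohesin partner of SMC1A, was at -0.53, and SMC5 and SMC6, which form a repair complex, at -0.22 and -0.29. Of 11 other topoisomerases and genes of adduct repair, 8 were called lower and 2 higher, with a median of -0.45. The shares over all genes tested, for both of these lists, were 29.8% lower and 28.8% higher. TOP1, the nuclear type I enzyme, was at -0.19 ± 0.05 (SE), and TOP1MT, its mitochondrial relative, was the highest at 0.28 ± 0.04 (SE, limma adjusted p 2.33e-06). BLM, a helicase that works with TOP3A, was the lowest at -1.28, and TOP3A itself was at -0.46. TDP2 and ZNF451, which release trapped topoisomerase II from DNA, were at 0.10, which did not pass, and at 0.18, which did (limma adjusted p 0.00236).

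The genes whose pattern over the 6 libraries was most like that of TOP2A were KIAA1524, CDCA8 and GOLPH3L, with a Euclidean distance of centred log2 values of 0.0272, 0.084 and 0.0858 among the 11407 genes averaging 100 reads or more. With 3 libraries against 3, this distance follows mainly the log2 ratio, which was -1.04, -1.09 and -1.02 for these genes beside -1.06 for TOP2A. The nearest member of the family was NCAPH, at a distance of 0.155 and in place 49. For TOP2B the nearest genes were NCEH1, ADD3 and IBTK, at 0.0155, 0.0206 and 0.0302, with log2 ratios of 0.18, 0.19 and 0.18 beside its own 0.19. The nearest member, NCAPH2, with a log2 ratio of -0.63, stood in place 10423 at 1.01.

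The sequences before the start sites were read for 3 motifs of cell cycle promoters, since 9 of the 10 genes were lower together. The motifs were CCAAT, the box bound by NF-Y, then TTTGAA, the letters of the cell cycle genes homology region, and letters of E2F sites. For the last, TTGGCGC was searched together with the variant form TTCCCGC and with the further variant form TTCGCGC. Each motif was sought on either strand in the 250 bases before the start (RefSeq, GRCh38.p14). CCAAT read on the other strand, ATTGG, can overlap TTGGCGC, and no motif contains another. CCAAT was in 32% of all 35116 promoters, TTTGAA in 13.3% and the E2F letters in 9.32%. Promoters were found for 9 of the 10 genes, and not for NCAPH2. CCAAT was in 5 of the 9 (NCAPD2, NCAPH, NCAPD3, TOP2A and TOP2B), TTTGAA in 5 (SMC4, NCAPD2, NCAPG, TOP2A and TOP2B) and the E2F letters in 3 (SMC4, NCAPG and NCAPD3), and 2 held none of these letters (SMC2 and NCAPG2). Shown are both topoisomerase genes, the gene with the largest fall (NCAPG) and a gene that fell with none of the motifs (NCAPG2), with motif letters in capitals and the rest in lower case, 5′ to 3′ on the strand of the gene.
TOP2A (chr17:40417897-40418146, minus strand): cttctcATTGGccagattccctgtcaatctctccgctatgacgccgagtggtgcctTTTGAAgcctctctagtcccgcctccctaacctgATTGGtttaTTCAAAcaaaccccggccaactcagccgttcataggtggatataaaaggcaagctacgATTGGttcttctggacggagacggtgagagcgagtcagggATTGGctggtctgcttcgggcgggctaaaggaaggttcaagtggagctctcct
TOP2B (chr3:25664908-25665157, minus strand): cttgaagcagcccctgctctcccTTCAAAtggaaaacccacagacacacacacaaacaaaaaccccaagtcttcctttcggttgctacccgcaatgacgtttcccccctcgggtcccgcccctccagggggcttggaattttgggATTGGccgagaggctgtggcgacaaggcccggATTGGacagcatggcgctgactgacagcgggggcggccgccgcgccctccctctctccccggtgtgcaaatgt
NCAPG (chr4:17810729-17810978, plus strand): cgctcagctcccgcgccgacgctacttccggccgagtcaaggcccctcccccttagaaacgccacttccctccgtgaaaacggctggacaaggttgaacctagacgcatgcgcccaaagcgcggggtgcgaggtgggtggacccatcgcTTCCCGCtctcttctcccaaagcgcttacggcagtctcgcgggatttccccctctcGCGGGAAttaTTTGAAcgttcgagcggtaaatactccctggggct
NCAPG2 (chr7:158704805-158705054, minus strand): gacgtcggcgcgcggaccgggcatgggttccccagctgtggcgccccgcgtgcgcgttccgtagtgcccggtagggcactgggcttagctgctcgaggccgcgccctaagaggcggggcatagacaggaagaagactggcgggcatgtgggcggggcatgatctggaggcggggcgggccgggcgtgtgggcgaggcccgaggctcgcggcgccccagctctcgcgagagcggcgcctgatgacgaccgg

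TOP2A held CCAAT at 4 places and TTTGAA at 2, and TOP2B, which did not fall, held CCAAT at 2 places and TTTGAA at 1. NCAPG held E2F letters at 2 places and TTTGAA at 1. NCAPG2 fell by 44.8% and held none. CCAAT and TTTGAA were thus in TOP2B as well as in genes that fell. The E2F letters were in SMC4, NCAPG and NCAPD3, which fell, and not in TOP2B. They were also absent from SMC2, NCAPD2, NCAPH, NCAPG2 and TOP2A, which fell as well, so their absence was not particular to TOP2B. A match is a stretch of letters, not a measured site, and the part of these motifs in the results was not tested.

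The hairpins named in the labels were also compared with the members. Their target sequences in SPINK2 are given with the bases that pair with positions 2 to 8 of the guide strand in capitals, counted from the guide's 5′ end and taking the guide as the exact complement of the target.
shRNA1: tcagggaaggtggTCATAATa
shRNA2: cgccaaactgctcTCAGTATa

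The first of these words, TCATAAT, was in the 3′ UTR of the canonical transcripts of SMC2 and SMC4, and the second, TCAGTAT, in that of NCAPH. In coding sequences TCATAAT was at 2 places in SMC4, and TCAGTAT at 1 in SMC4 and 1 in NCAPD2. Genes with the word in the coding sequence and not in the 3′ UTR had medians of 0.01 and -0.04. Over the 11086 genes averaging 50 reads or more, the median log2 ratio was 0.01 with TCATAAT in the 3′ UTR (13.7% of genes) and -0.02 with it in neither the 3′ UTR nor the coding sequence, and 0.00 and -0.02 for TCAGTAT (16% of genes in the 3′ UTR). The word GCTCTCA, bases 10 to 16 of the second target, was looked at with its values already known. Genes with it in the 3′ UTR had a median of -0.20 (10.6% of genes), beside 0.01 with it in neither the 3′ UTR nor the coding sequence (78.8%). Of the 10 members, 0 held it in the 3′ UTR, although NCAPD3, NCAPG2 and TOP2A held it once in their coding sequences. Genes with it in the coding sequence and not in the 3′ UTR (10.6%) had a median of -0.09. This word is not the one that pairs with guide positions 2 to 8, and its part in the results was not tested.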

How the data were processed

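RNA of 6 FUJIOKA libraries was sequenced as paired reads of 150 bases, which the authors aligned to the GRCh38 genome by STAR, assigned to genes by featureCounts and normalized and compared by DESeq2. The labels name STAR 2.7.11 and DESeq2 1.40.0. The featureCounts version, its strand setting and the annotation release are not given in the sources used here. The deposited table has 63236 genes and no column per library. Its mean is a signal, the average over 6 libraries of counts that the authors divided by size factors. Its log2 fold changes and their standard errors, a score here, were fitted by the authors with DESeq2, and served only to recover reads. The Wald score, the p-values and adjusted p-values that the authors deposited were not used.

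Size factors were read from the 6 commonest means, each that of a gene with 1 read in 1 library, and the sign of the deposited fold change gave the group. The table does not name the numerator, which was taken as shSPINK2, as in the study's comparison of deficient with proficient cells. The reads of a gene are the whole numbers that give its mean and, in a repeated fit, its log2 fold change within 5e-14. This fit was written anew after the DESeq2 model, without running DESeq2, and its dispersion was set to give the deposited standard error. This left 1 solution for 16074 of the 16131 genes averaging 10 reads or more (99.6%), and the other 57 were left out. The search was tested on simulated data, whose fold changes came from the same rewritten fit, so that this tests the search and not the likeness to DESeq2.

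Log2(normalized reads + 0.5) was tested with limma 3.58.1 (trend, Benjamini-Hochberg over all 16074 genes, R 4.3.3). The fit was also tested on simulated data. There it called 74 of 100 genes changed by a log2 ratio of 0.5, 87 of 100 changed by 1 and 9 unchanged genes. Only 200 genes were changed in that simulation, whereas 29.8% of genes were called lower and 28.8% higher in the data. Ratios within a library were compared by a two-sided exact permutation test. Alternatives were other pseudocounts, filters, scalings and thresholds, voom weights, leaving out each library, and the edgeR 4.0.16 quasi-likelihood test on the recovered reads, which was added after seeing the data. Positions and canonical transcripts came from GENCODE release 44, and promoters from RefSeq. The named genes are the 10 members, SPINK2, the lowest and highest of each list and those described by role, and the 3 genes nearest to TOP2A and TOP2B. The members and lists were chosen with earlier results of these data known. Of all the list genes, a single one is left out and not reported here.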

Additional observations from a re-analysis of the deposited data

How the results depend on the processing

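No alternative turned the direction of a member or lost its call at an adjusted p under 0.05, over pseudocounts of 2 and 5, other filters, upper quartile scaling, centring, voom weights, protein-coding genes, leaving out each library and the edgeR test. Of 253 values computed under alternatives, 245 kept their direction and their side of the threshold or moved by less than the spread, 8 moved and 0 reversed. Of the 8, 7 are counts under stricter thresholds. The 245 include the counts over all genes under upper quartile scaling, although their balance turned, from 4791 lower and 4624 higher to 4098 and 5496. They also include the log2 ratio of TOP2A without library c of shSPINK2, which at -0.996 no longer passed -1. Past a log2 ratio of 1, 3 members were lower and 0 higher, beside 476 lower and 296 higher of all genes, and past a ratio of 1.5-fold 0 members were higher, beside 1448 lower and 1226 higher of all genes. The shift between condensin I and condensin II was -0.07 with summed reads. The TOP2A to TOP2B difference stayed between -1.26 and -1.24. The edgeR test, added after seeing the data, called 4910 of all genes lower and 4582 higher, and 9 members lower and 1 higher. Under upper quartile scaling the log2 ratio of TOP2A was -1.002. No paired analysis was possible because the recovered libraries carry no replicate number. The reads of the 10 members were the same when the search window was doubled or halved. Genes with the highest counts, ACTB, GAPDH, B2M and PPIA among them, had no single solution and were not analysed here. With 3 libraries a group, no ratio within a library could reach an exact p below 0.1.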
